A study of Homo sapiens with 12 samples.

Results

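The aminoacyl-tRNA synthetases are the enzymes that join each amino acid to its transfer RNA before it is used by the ribosome. This account covers 36 nuclear genes of that family, 20 for cytosolic enzymes and 16 for mitochondrial ones, out of 25433 genes listed in the deposited count tables. The members were taken by gene symbol, and symbols ending in 2 were counted as mitochondrial. The symbols are older ones, so that AARS is now called AARS1 and MARS is now MARS1. All 36 had a row in both tables and all 36 passed the low-count filter in every comparison. The cells were A549, an established human lung adenocarcinoma line grown in F-12K medium with 10% serum at passages 5 to 10. The 12 RNA-seq libraries fell into 3 groups of 4. In the first group (column codes S22 to S25, called acetate libraries below) the cells had received TGF-β1 at 10 ng/mL plus sodium acetate at 40 mM. The second group (S15 to S18) had received TGF-β1 at 10 ng/mL alone. Neither agent was given to the control group (S1 to S4). All were collected after 2 days, and all are libraries of 1 cell line. No group received acetate without TGF-β1, and no group received the same load of sodium without acetate, so acetate, sodium and osmolarity cannot be told apart.

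Most amino acids have a separate synthetase for the cytosol and for the mitochondrion, each from its own nuclear gene. Among the members, GARS and KARS are exceptions, as their genes make both forms. QARS has no mitochondrial counterpart among the members. The cytosolic phenylalanine enzyme needs the products of both FARSA and FARSB, and FARS2 is the mitochondrial gene. EPRS carries the enzymes for glutamate and proline in a single chain. Several cytosolic synthetases sit in a large complex held together by the scaffold proteins AIMP1, AIMP2 and EEF1E1. Many cytosolic synthetase genes are known targets of ATF4, the transcription factor made when cells lack amino acids and the kinase GCN2 senses uncharged transfer RNA. TGF-β1 is a secreted factor that drives epithelial cells such as A549 toward a mesenchymal state, and acetate can be turned into acetyl-CoA.

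Total counts per library ran between 34698057 and 41575904 in the acetate group, between 37202599 and 53936023 with TGF-β1, and between 38400896 and 53055990 in the controls. The lowest count of any member in any library was 187 reads, for PARS2 in S23, and the highest was 49697 reads, for IARS in S4. Levels below are CPM, counts relative to the library total, with that total scaled by the trimmed mean of M values (TMM). All 5 epithelial markers examined (KRT8, KRT18, KRT19, EPCAM and CDH1) were detected, with summed levels of 4134 to 4855 CPM in acetate libraries, 3470 to 3788 CPM in TGF-β1 libraries and 4212 to 4425 CPM in control libraries. CDH1, the adherens junction cadherin of epithelia, measured 42.5 to 48.7 CPM in acetate libraries, 0.882 to 1.72 CPM with TGF-β1 and 55.6 to 62.3 CPM in controls. A further 5 genes typical of this kind of adenocarcinoma (AKR1B10, AKR1C1, ALDH1A1, NQO1 and ALDH3A1) summed to 8119 to 8438 CPM, 14667 to 15404 CPM and 14846 to 15795 CPM in the same order of groups. Most of that sum was ALDH1A1, at 6630 to 6881 CPM in acetate libraries, 13546 to 14216 CPM with TGF-β1 and 8538 to 9216 CPM in controls, and the other 4 were each lower in both treated groups than in controls. AKR1B10 measured 582 to 711 CPM in acetate libraries, 255 to 278 CPM with TGF-β1 and 3394 to 3587 CPM in controls, and ALDH3A1 40.9 to 48.3, 27.3 to 31.1 and 844 to 926 CPM in the same order. The 3 fibroblast markers (PDGFRB, DCN and LUM) summed to 15.3 to 17.9 CPM in acetate libraries, 5.54 to 7.38 CPM with TGF-β1 and 0.545 to 0.837 CPM in controls, most of it LUM. Of 4 blood and 3 endothelial markers, 0 had rows in both tables. The part of these marker differences in the synthetase results was not tested. In bulk RNA, fewer cells of a type and less RNA per cell cannot be told apart.

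Promoter windows from RefSeq (GRCh38.p14, 250 bases before to 50 after the transcript start) were found for 30 of the 36 members, and 29 of these held the first 20 bases of a GENCODE 29 transcript of the gene. Each was searched on both strands for TGATGNAA, the core of the amino acid response element that ATF4 binds with a C/EBP partner. The motif was present in 5 of 16 cytosolic windows (31.2%) and in 1 of 14 mitochondrial windows (7.14%, YARS2), against 1270 of all 35116 RefSeq windows (3.62%). All 5 cytosolic windows with it belong to the list of 12 cytosolic synthetases described as ATF4 targets, of which 10 had a window. That list was put together with results of these data known. The other 6 cytosolic windows held 0 matches. The longer form TGATGNAAT was present in the GARS window only among the members, and in 348 of all windows (0.991%). A match is a description of these letters and not of binding. The 5 cytosolic windows are shown, to 30 bases after the start, because their genes are among the most strongly lowered synthetases described next. They were thus chosen with the values known. YARS2, whose window is not shown, rose with TGF-β1 (log2 0.27). The CARS, EPRS, SARS, WARS and TARS windows held 0 matches, and these genes fell with TGF-β1 too. Some windows lie inside the span of their gene, so starts further upstream were not searched. The CARS window (chr11:3040935-3041234, minus strand) is an example, as its gene reaches 3057613, and the MARS window is another. The part of the motif in the changes was not tested. Capitals mark the motif, which lies on the opposite strand in all but NARS. Its first base is at position -187 in AARS, -33 in GARS, -13 in IARS, -4 in MARS and 15 in NARS, counted from the start.
AARS, chr16:70289477-70289756, minus strand: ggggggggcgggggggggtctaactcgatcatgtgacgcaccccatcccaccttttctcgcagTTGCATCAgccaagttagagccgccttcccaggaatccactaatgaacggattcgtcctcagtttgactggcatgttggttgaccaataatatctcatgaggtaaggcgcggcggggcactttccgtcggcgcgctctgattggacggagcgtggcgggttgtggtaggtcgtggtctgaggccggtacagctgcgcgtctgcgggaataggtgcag
GARS, chr7:30594628-30594907, plus strand: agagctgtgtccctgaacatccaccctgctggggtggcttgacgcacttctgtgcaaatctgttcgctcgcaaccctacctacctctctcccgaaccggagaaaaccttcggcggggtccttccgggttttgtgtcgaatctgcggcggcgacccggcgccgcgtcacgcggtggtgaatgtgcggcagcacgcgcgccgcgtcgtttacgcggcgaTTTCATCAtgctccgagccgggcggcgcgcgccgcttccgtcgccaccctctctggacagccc
IARS, chr9:92293668-92293947, minus strand: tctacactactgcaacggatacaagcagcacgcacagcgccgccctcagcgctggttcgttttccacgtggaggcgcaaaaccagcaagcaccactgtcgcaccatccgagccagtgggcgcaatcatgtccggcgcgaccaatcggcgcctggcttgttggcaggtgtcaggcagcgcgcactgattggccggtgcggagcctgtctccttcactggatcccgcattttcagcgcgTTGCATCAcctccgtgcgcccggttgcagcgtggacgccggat
MARS, chr12:57487818-57488097, plus strand: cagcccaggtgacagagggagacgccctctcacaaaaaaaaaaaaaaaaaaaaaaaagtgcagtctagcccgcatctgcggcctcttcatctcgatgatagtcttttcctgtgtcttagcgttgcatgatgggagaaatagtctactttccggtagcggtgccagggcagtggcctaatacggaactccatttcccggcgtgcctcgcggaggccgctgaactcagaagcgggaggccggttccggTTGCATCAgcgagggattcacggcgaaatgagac
NARS, chr18:57621807-57622086, minus strand: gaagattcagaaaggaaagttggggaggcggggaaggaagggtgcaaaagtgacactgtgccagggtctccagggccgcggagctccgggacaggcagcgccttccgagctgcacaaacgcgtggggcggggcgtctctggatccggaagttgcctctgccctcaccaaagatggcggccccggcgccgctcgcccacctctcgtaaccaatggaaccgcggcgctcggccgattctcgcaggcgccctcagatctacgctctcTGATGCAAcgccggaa

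The first comparison asks what TGF-β1 alone did to these genes. Of the 20 cytosolic synthetase transcripts, 16 fell and 4 rose with TGF-β1 (edgeR quasi-likelihood test, Benjamini-Hochberg adjusted p below 0.05 over 22051 genes). The background was high, since 66.9% of all genes tested were called, 32.8% lower and 34.1% higher. The summed level of the 20 cytosolic genes was 3320 ± 81.7 CPM with TGF-β1 and 5461 ± 64.5 CPM in controls (SD, n = 4 each). Their median log2 fold change was -0.53, beside 0.02 for all genes tested. The fall was at least 2-fold for 6 of the 20, a size reached by 8.68% of all genes downward and 8.92% upward. The 4 libraries of a group did not overlap with those of the other for 15 of the 16 lowered and all 4 raised genes, as for 61.4% of all genes (30.7% in each direction). Separate cultures for the replicate libraries are not stated in the labels, and the p-values may thus rest on technical spread.

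AARS, the alanyl-tRNA synthetase (chr16:70252295-70289543, minus strand, hg38), fell the most of the 36. Its levels were 150, 148, 155 and 153 CPM in acetate libraries, 173, 172, 189 and 176 CPM in TGF-β1 libraries and 515, 532, 515 and 515 CPM in control libraries. The 3 groups did not overlap, and every control library was far above the 8 treated ones. The log2 fold change for TGF-β1 against control was -1.54 ± 0.037 (SE), a 2.92-fold lower level with an edgeR adjusted p of 1.5e-15.

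MARS, the methionyl-tRNA synthetase (chr12:57475445-57517569, plus strand), charges both initiator and elongator tRNA for methionine. It measured 116, 112, 118 and 117 CPM in acetate libraries, 147, 153, 168 and 151 CPM with TGF-β1 and 393, 430, 420 and 422 CPM in controls, again with no overlap between groups. The fall with TGF-β1 was 2.68-fold (log2 -1.42 ± 0.044, adjusted p = 3.6e-14). The MARS locus overlaps DDIT3, a stress transcription factor gene on the opposite strand, by 982 bases, and the counting tool's strand setting is not given in the sources used here. DDIT3 averaged 8.84 ± 0.861 CPM in acetate libraries, 11.4 ± 2.34 CPM with TGF-β1 and 69.0 ± 3.98 CPM in controls (SD, n = 4 each). MARS also overlaps ARHGAP9, another gene on the opposite strand, by 13370 bases. The part of shared reads in the MARS values was not tested.

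GARS, the glycyl-tRNA synthetase of both cytosol and mitochondria (chr7:30594681-30634033, plus strand), was similarly ordered. Its levels were 145, 141, 145 and 141 CPM in acetate libraries, 171, 176, 185 and 180 CPM with TGF-β1 and 440, 446, 437 and 441 CPM in controls. The groups did not overlap, and GARS was 2.47-fold lower with TGF-β1 (log2 -1.30 ± 0.034, adjusted p = 4.2e-15). YARS, the tyrosyl-tRNA synthetase (chr1:32775237-32818153, minus strand), measured 69.3, 70.6, 74.6 and 73.4 CPM with acetate, 93.7, 99.2, 104 and 101 CPM with TGF-β1 and 243, 242, 245 and 245 CPM in controls. The control libraries were far above all 8 treated ones, and the fall was 2.44-fold (log2 -1.29 ± 0.036, adjusted p = 1.1e-14).

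CARS, the cysteinyl-tRNA synthetase (chr11:3000922-3057613, minus strand), had 49.1, 49.7, 56.6 and 50.2 CPM in acetate libraries, 50.8, 50.9, 69.0 and 53.0 CPM in TGF-β1 libraries and 133, 133, 140 and 137 CPM in controls. The TGF-β1 library S17 was the highest of its group by a wide gap, and the acetate and TGF-β1 groups overlapped. With TGF-β1, CARS fell 2.40-fold (log2 -1.27 ± 0.074, adjusted p = 1.8e-10). IARS, the isoleucyl-tRNA synthetase (chr9:92210207-92293756, minus strand), had 319, 332, 335 and 338 CPM with acetate, 465, 457, 484 and 475 CPM with TGF-β1 and 909, 985, 952 and 935 CPM in controls. Its groups were fully separate and the fall with TGF-β1 came to 2.00-fold (log2 -1.002 ± 0.035, adjusted p = 1.8e-13).

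**Figure D1:**
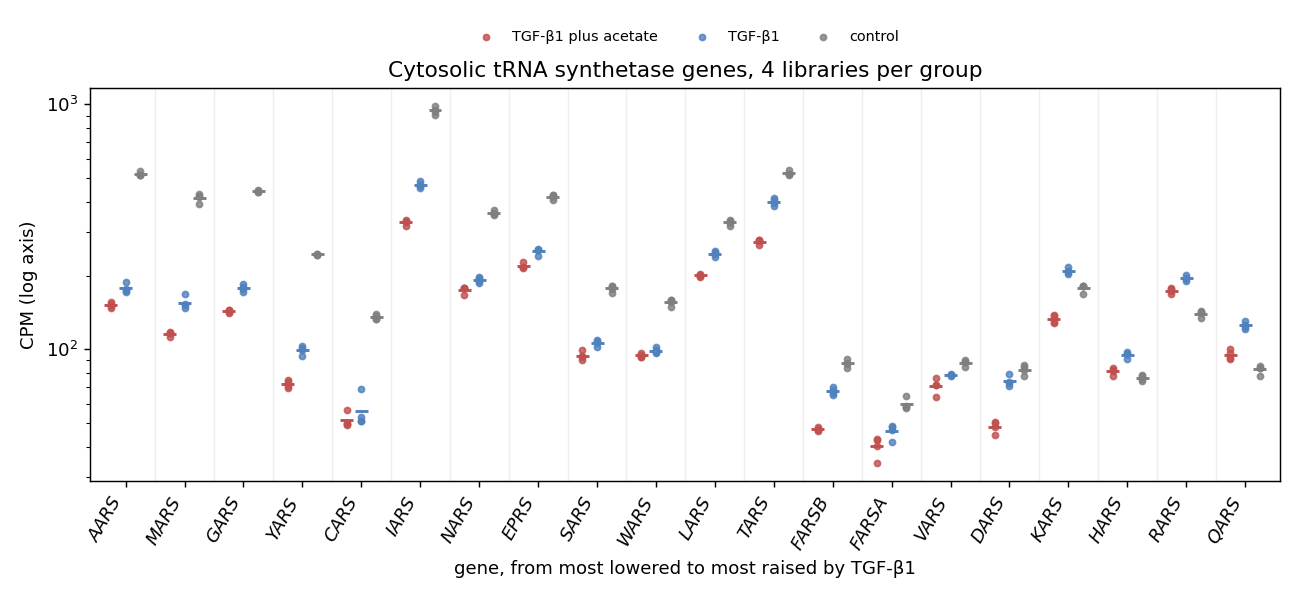
Levels of the 20 cytosolic synthetase transcripts in each library, as CPM on a log axis, for TGF-β1 plus acetate, TGF-β1 and control libraries; points are libraries and bars are group means (n = 4 each). AARS, MARS, GARS, YARS, CARS and IARS sit well below their control libraries in both treated groups, whereas QARS and RARS sit above them.

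A further 8 cytosolic genes fell by between 1.28-fold and 1.87-fold with TGF-β1. NARS, for asparagine, averaged 192 ± 4.69 CPM with TGF-β1 and 360 ± 8.50 CPM in controls (log2 -0.90 ± 0.034). EPRS and SARS fell by 0.73 each on the log2 scale, and WARS, the tryptophan enzyme that interferon also induces, by 0.65. LARS, whose protein also senses leucine for the mTORC1 pathway, fell by 0.42, and TARS, for threonine, by 0.38. FARSA and FARSB, the partner subunits of the phenylalanine enzyme, fell by 0.36 and 0.37. All these groups were separate, with edgeR adjusted p-values of at most 6.8e-06. VARS (log2 -0.16 ± 0.033, adjusted p = 0.00044) and DARS (log2 -0.15 ± 0.042, adjusted p = 0.0039) fell by little, and the DARS libraries overlapped, at 70.5 to 79.2 CPM with TGF-β1 and 78.0 to 85.8 CPM in controls.

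The 4 cytosolic genes that rose with TGF-β1 were QARS, RARS, HARS and KARS, which charge glutamine, arginine, histidine and lysine. QARS measured 91.4, 91.9, 101 and 96.2 CPM in acetate libraries, 121, 123, 130 and 126 CPM with TGF-β1 and 84.2, 77.7, 83.9 and 85.5 CPM in controls. All 4 TGF-β1 libraries were the highest, and the acetate libraries lay between the other groups. QARS rose 1.52-fold with TGF-β1 (log2 0.60 ± 0.038, adjusted p = 5.4e-10). RARS had 168, 173, 178 and 176 CPM with acetate, 194, 196, 189 and 201 CPM with TGF-β1 and 143, 134, 142 and 141 CPM in controls. Its order of groups was that of QARS, with no overlap, and its rise was 1.40-fold (log2 0.48 ± 0.035, adjusted p = 2.6e-09). KARS rose 1.18-fold (log2 0.23 ± 0.036, adjusted p = 2.6e-05), at 202, 209, 207 and 216 CPM with TGF-β1 against 182, 168, 181 and 181 CPM in controls. In the acetate libraries KARS measured 127, 129, 138 and 136 CPM, below every control library.

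HARS rose 1.25-fold with TGF-β1 (log2 0.32 ± 0.035, adjusted p = 5.7e-07), at 91.1, 97.3, 95.6 and 95.3 CPM against 78.7, 74.0, 75.3 and 77.6 CPM in controls. HARS and HARS2, the cytosolic and mitochondrial histidine enzymes, start from opposite strands of the same stretch of chromosome 5, and their genes overlap by 437 bases in GENCODE 29, whose coordinates for both differ from those in the deposited tables, so unstranded counting would share reads there. The HARS window is shown to 30 bases after the start because it holds a shared promoter region; the 164 bases in capitals also lie in the HARS2 window, read on the other strand.
HARS, chr5:140691341-140691620, minus strand: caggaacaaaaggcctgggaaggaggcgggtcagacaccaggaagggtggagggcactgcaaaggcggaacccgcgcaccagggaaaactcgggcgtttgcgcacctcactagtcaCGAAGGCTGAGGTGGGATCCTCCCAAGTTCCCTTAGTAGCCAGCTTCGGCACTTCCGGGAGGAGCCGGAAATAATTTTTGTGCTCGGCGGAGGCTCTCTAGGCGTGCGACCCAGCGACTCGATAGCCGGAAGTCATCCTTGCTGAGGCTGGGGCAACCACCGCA
HARS2 measured 52.4, 57.9, 57.8 and 56.0 CPM with TGF-β1 and 52.4, 50.3, 51.3 and 54.1 CPM in controls. These groups overlapped, and the rise of 0.11 ± 0.040 on the log2 scale had an adjusted p of 0.022. It was not called without control library S1, S2 or S3 or TGF-β1 library S16 or S17, with adjusted p-values of 0.062 to 0.19.

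Among the 16 mitochondrial synthetases, 7 fell, 4 rose and 5 were not called with TGF-β1, a share called that is near the 66.9% of all genes. Their median log2 fold change was -0.13, and 0 changed 2-fold in either direction. Their summed level was 615 ± 16.02 CPM with TGF-β1 and 690 ± 14.6 CPM in controls (SD, n = 4 each). IARS2 was the largest part of that sum, at 198 ± 5.32 CPM with TGF-β1 and 238 ± 7.91 CPM in controls. CARS2 fell 1.54-fold (log2 -0.62 ± 0.049, adjusted p = 9.4e-09), at 19.8, 22.6, 23.1 and 22.2 CPM with TGF-β1 and 32.9, 33.6, 35.3 and 33.6 CPM in controls. MARS2, a gene without introns whose product also charges the mitochondrial initiator tRNA, fell by 0.54 on the log2 scale. SARS2 fell by 0.44, VARS2 and NARS2 by 0.33 each, IARS2 by 0.26 and LARS2 by 0.13, the last not called without S16 (adjusted p = 0.063). YARS2 rose 1.20-fold (log2 0.27 ± 0.049, adjusted p = 0.00015), at 34.6, 35.9, 39.2 and 36.4 CPM against 29.01, 29.3, 31.1 and 32.7 CPM in controls, and AARS2 rose 1.19-fold (log2 0.24 ± 0.051, adjusted p = 0.00049). TARS2 rose by 0.11 ± 0.042 on the log2 scale (adjusted p = 0.031), a call lost when any single control library, S16 or S18 was left out (adjusted p of 0.059 to 0.22). EARS2, FARS2, PARS2, RARS2 and WARS2 had log2 values between -0.18 and 0.09 and adjusted p-values of 0.059 to 0.54. With library totals in place of TMM the mitochondrial counts became 11 lower and 2 higher, and HARS2 and TARS2 were no longer called.

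**Figure D2:**
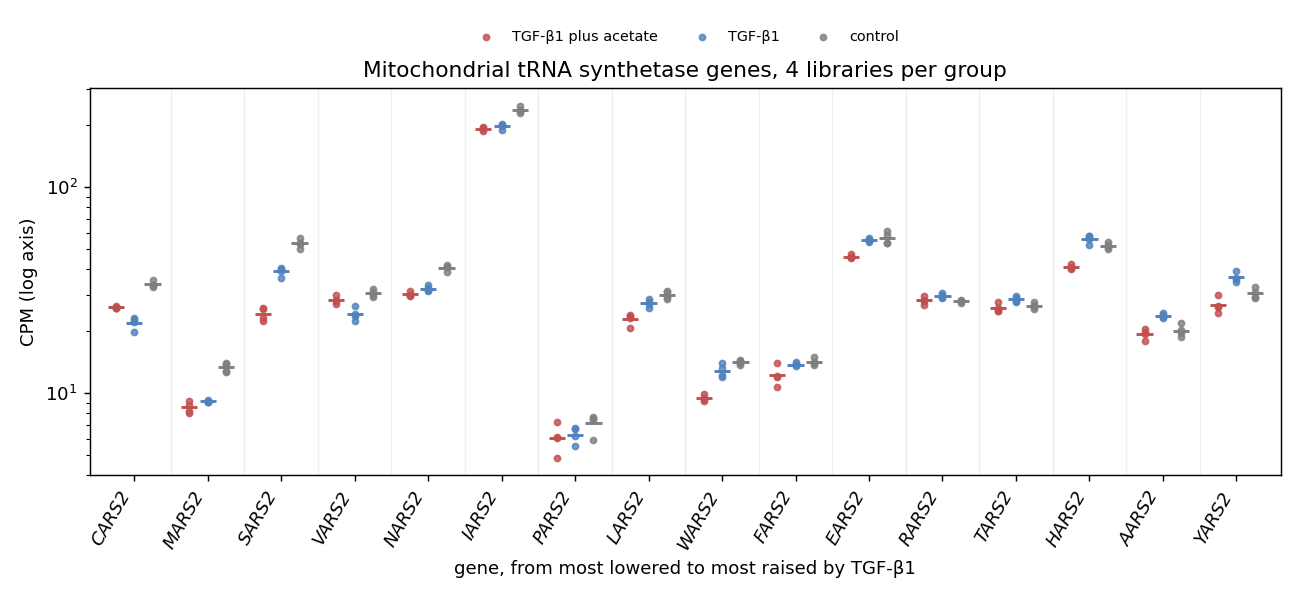
Levels of the 16 mitochondrial synthetase transcripts in each library, as CPM on a log axis, in the same groups and with the same marks as for the cytosolic genes. SARS2 averages 24.3 CPM in acetate libraries, 39.1 CPM with TGF-β1 and 53.4 CPM in controls, and the PARS2 libraries of all groups overlap.

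The second comparison asks what sodium acetate did on top of TGF-β1. With acetate, 18 of the 20 cytosolic synthetases fell relative to TGF-β1 alone and 0 rose, although most changes were small. Of all 22336 genes tested, 63.7% were called, 30.4% lower and 33.3% higher. The summed cytosolic level was 2611 ± 46.0 CPM in acetate libraries and 3320 ± 81.7 CPM in TGF-β1 libraries (SD, n = 4 each). The median log2 fold change was -0.25 for the 20 genes, beside 0.03 for all genes, and 0 of them changed 2-fold, beside 2.07% of all genes that fell that far. Libraries of the groups did not overlap for 17 of the 20, all lower, as for 57.3% of all genes (28.0% lower). None was higher at an unadjusted p below 0.05 in edgeR, DESeq2 or limma-voom. The libraries of TGF-β1 alone serve both comparisons, so the values stand side by side and are not independent.

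KARS showed the largest fall of the cytosolic genes with acetate, at the levels given above (log2 -0.64 ± 0.036, 1.56-fold lower, adjusted p = 4.6e-10). DARS, the aspartate enzyme, had 44.5, 50.1, 50.4 and 48.4 CPM with acetate and 70.5, 73.2, 72.8 and 79.2 CPM with TGF-β1. These groups were far apart, and the fall was 1.52-fold (log2 -0.60 ± 0.046, adjusted p = 1.4e-08). TARS fell 1.44-fold, at 266, 278, 280 and 276 CPM against 384, 394, 414 and 407 CPM with TGF-β1 (adjusted p = 1.5e-09). FARSB fell 1.42-fold and IARS 1.41-fold, while FARSA, the partner of FARSB, fell 1.15-fold with overlapping libraries (adjusted p = 0.016). YARS (log2 -0.46), MARS (log2 -0.41), QARS (log2 -0.39), GARS (log2 -0.31) and LARS (log2 -0.28) also fell with separate groups. AARS, HARS, EPRS, SARS, RARS, VARS and NARS fell by 0.22 down to 0.13 on the log2 scale. CARS (log2 -0.11 ± 0.082, adjusted p = 0.23) and WARS (log2 -0.06 ± 0.033, adjusted p = 0.14) were not called.

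The number of cytosolic genes lowered by acetate depended on the scaling. TMM left the median of all genes at a log2 change of 0.03, and library totals moved it to 0.16, with 9592 genes higher and 4699 lower in place of 7437 and 6792. Under library totals 11 of the 20 remained lower, and AARS, EPRS, FARSA, NARS, RARS, SARS and VARS were no longer called. Under the same scaling the median of all genes for TGF-β1 against control became -0.09, and the 16 lower and 4 higher cytosolic calls stood.

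Of the mitochondrial synthetases, 8 fell, 2 rose and 6 were not called with acetate, a share called that is near the 63.7% of all genes. Over the alternative ways of processing, the count lower ran from 6 to 10. FARS2 just missed the threshold (log2 -0.17, edgeR adjusted p = 0.055) and was called lower with RLE factors, DESeq2 and limma-voom. SARS2, the serine enzyme, had 25.7, 22.5, 25.9 and 23.2 CPM with acetate and 36.2, 40.7, 39.4 and 40.3 CPM with TGF-β1, and fell 1.598-fold (log2 -0.68 ± 0.054, adjusted p = 2.5e-08). HARS2 and YARS2 fell by 0.44 each on the log2 scale, WARS2 by 0.43, AARS2 by 0.28, EARS2 and LARS2 by 0.25 each and TARS2 by 0.13. The TARS2 call was lost without S22 (adjusted p = 0.054) or S23 (adjusted p = 0.058), and under library totals LARS2 and TARS2 were not called and IARS2 was called higher (log2 0.10). CARS2 and VARS2, both lower with TGF-β1, rose with acetate. CARS2 had 26.0, 26.5, 26.0 and 25.9 CPM with acetate, above the 19.8 to 23.1 CPM of TGF-β1 libraries and below the 32.9 to 35.3 CPM of controls (log2 0.26 ± 0.050 against TGF-β1, adjusted p = 0.0003). VARS2 had 28.3, 27.1, 30.1 and 28.1 CPM with acetate and 23.8, 26.6, 24.3 and 22.5 CPM with TGF-β1 (log2 0.24 ± 0.055, adjusted p = 0.0014). The counts of several of these genes are uncertain because they overlap other protein-coding genes. On the same strand, SARS2 overlaps AC011455.2 (15493 bases), VARS2 overlaps GTF2H4 (5865 bases) and HARS2 overlaps ZMAT2 (639 bases). MARS2 overlaps AC011997.1, a gene not classed as protein-coding, on its own strand. That overlap spans 3019 bases, the length of the longest MARS2 transcript. On the other strand, CARS2, YARS2, AARS2, EARS2, SARS2 and HARS2 overlap a protein-coding gene, as do HARS, KARS, MARS, WARS and YARS among the cytosolic genes.

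Against the untreated controls, the acetate libraries had 17 of 20 cytosolic synthetases lower and 3 higher, in a fit of all 12 libraries. Over the 22742 genes of that fit, 70.6% were called, 34.4% lower and 36.1% higher. The lowering was at least 2-fold for 7 cytosolic genes and for SARS2, a size reached downward by 5.47% of genes. Cytosolic genes with separate groups numbered 17 lower and 2 higher, where 64.0% of all genes were separate (31.6% lower and 32.4% higher). MARS was 3.59-fold lower (log2 -1.85 ± 0.043), AARS 3.42-fold, YARS 3.39-fold, GARS 3.09-fold, IARS 2.86-fold, CARS 2.63-fold and NARS 2.06-fold, each with an adjusted p of at most 2.8e-12. SARS2 was 2.19-fold lower (log2 -1.13 ± 0.054, adjusted p = 4.2e-13). RARS (log2 0.31 ± 0.034, adjusted p = 1.2e-07) and QARS (log2 0.20 ± 0.041, adjusted p = 0.00025) stayed above the controls. HARS (log2 0.09 ± 0.036, adjusted p = 0.034) overlapped the controls and lost its call in the fit of the 8 libraries alone (adjusted p = 0.12) and with DESeq2 (adjusted p = 0.13), and also without control library S2 or S3 or acetate library S22, S24 or S25 (adjusted p of 0.064 to 0.27). The mitochondrial set had 11 lower and 0 higher, where 34.4% of all genes were lower, and 0 were higher at an unadjusted p below 0.05 in edgeR, DESeq2 or limma-voom. The count lower ran from 11 to 13 over the alternative ways of processing. PARS2 and VARS2 were called lower with RLE factors, with DESeq2 and in the fit of the 8 libraries alone.

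**Figure D3:**
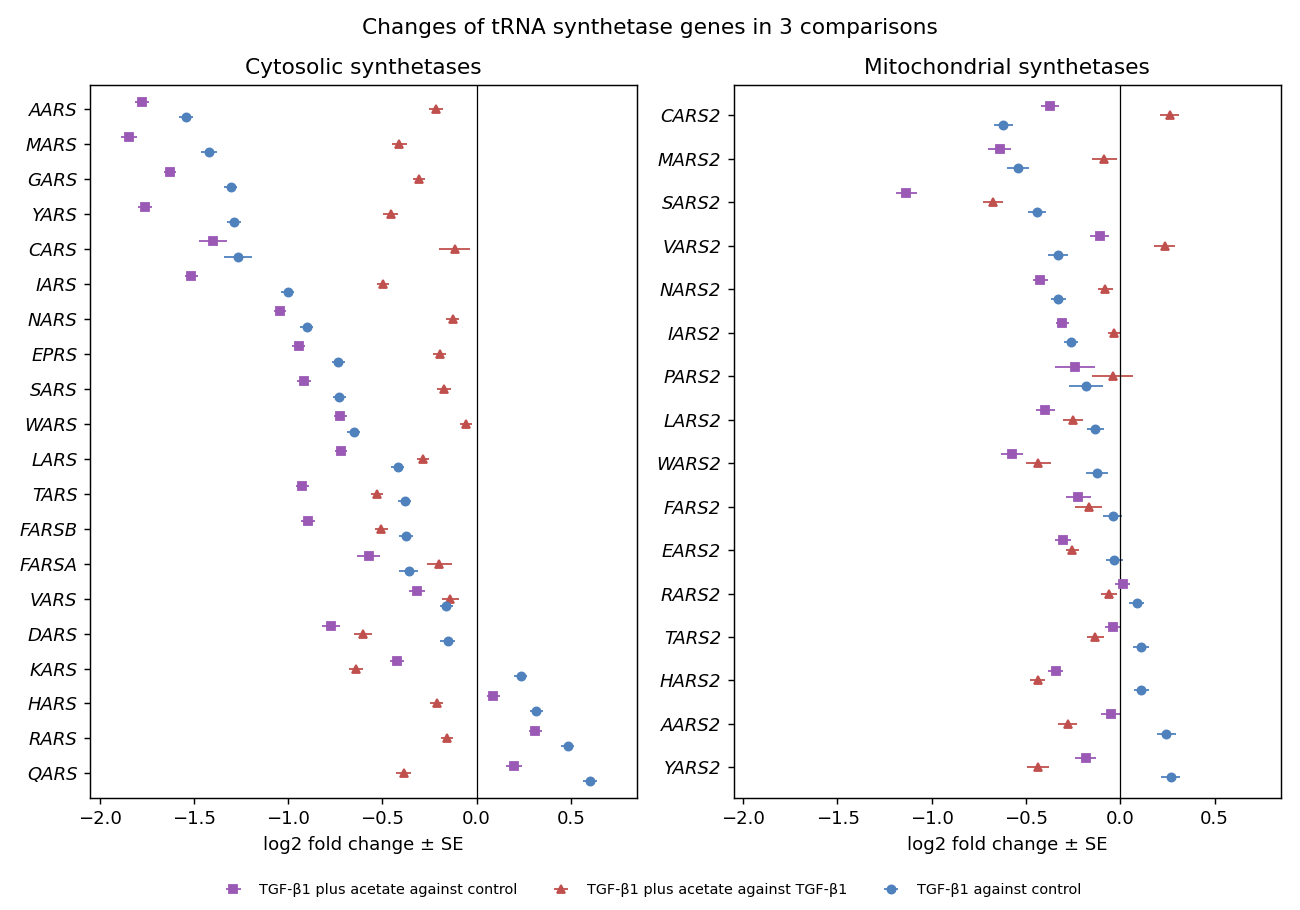
Log2 fold changes of the 36 synthetase genes with their standard errors as bars, for TGF-β1 plus acetate against control (squares), TGF-β1 plus acetate against TGF-β1 (triangles) and TGF-β1 against control (circles). All 20 cytosolic genes lie left of 0 for acetate against TGF-β1, and QARS, RARS, HARS and KARS are the 4 that lie right of 0 for TGF-β1 against control.

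Across the 3 comparisons, 14 cytosolic genes were lower in each. Taken singly, the comparisons had 32.8% (TGF-β1 against control), 30.4% (acetate against TGF-β1) and 34.4% (acetate against control) of all genes lower. The share of all genes lower in all 3 was not counted. A fall in both steps largely fixes the call against control. KARS was higher with TGF-β1, lower with acetate against TGF-β1 and lower with acetate against control. HARS, QARS and RARS were higher, lower and higher in the same comparisons. Because the groups are shared, these patterns do not come from separate experiments.

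The members differ in whether they have been described as ATF4 targets, a list put together with results of these data known, so that its direction is no independent evidence. Of all genes tested with TGF-β1, 32.8% were lower (8.68% at least 2-fold) and 34.1% higher. With acetate against TGF-β1, 30.4% of all genes were lower. All 12 such cytosolic genes fell with TGF-β1, 6 of them at least 2-fold, with a median log2 fold change of -0.95. The other 8 cytosolic genes divided into 4 higher and 4 lower, with a median of 0.04. With acetate against TGF-β1 the lists had 10 of 12 and 8 of 8 lower, with medians of -0.25 and -0.30, and with library totals 6 of 12 and 5 of 8. For acetate against control the medians were -1.22 and -0.37. Grouping by the multi-synthetase complex gave 5 of 8 complex members lower with TGF-β1 and 11 of 12 free enzymes lower, and with acetate 8 of 8 and 10 of 12 lower (6 of 8 and 5 of 12 with library totals). The 2 structural classes of synthetase had 7 of 9 (class I) and 8 of 10 (class II) members lower with TGF-β1. EPRS, which has a domain of each class, was counted in neither.

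The scaffold genes of the complex fell as well. AIMP1 averaged 35.2 ± 0.368 CPM with acetate, 42.2 ± 1.12 CPM with TGF-β1 and 60.1 ± 3.73 CPM in controls (SD, n = 4 each). AIMP2 averaged 34.6 ± 2.75, 50.5 ± 1.53 and 72.9 ± 3.10 CPM, and EEF1E1 26.0 ± 1.58, 27.3 ± 1.496 and 42.1 ± 0.83 CPM, in the same order of groups. All 3 fell with TGF-β1 (log2 -0.50, -0.52 and -0.62, adjusted p at most 3.8e-08). With acetate against TGF-β1, AIMP1 (log2 -0.25) and AIMP2 (log2 -0.53) fell, and EEF1E1 did not pass (log2 -0.06, adjusted p = 0.36).

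Levels can be compared between genes only per length of transcript. Per kilobase of longest transcript, IARS had the highest control level of the cytosolic genes at 203 CPM per kilobase, followed by GARS at 167 and AARS at 149, and VARS the lowest at 20.4. In acetate libraries RARS had the highest level, at 80.9 CPM per kilobase, and with TGF-β1 IARS at 101. These orders depend on the length used: per kilobase of longest coding sequence, IARS at 250 was followed by TARS at 230 and NARS at 219 in controls, and TARS was highest with acetate at 121 and with TGF-β1 at 176. VARS was the lowest in controls by both lengths. Among mitochondrial genes IARS2 had the highest control level at 66.9 CPM per kilobase and PARS2 the lowest at 3.04, and both held these places by coding length too. For 13 amino acids a cytosolic and a mitochondrial gene were both members. The ratio of their levels per kilobase was lower with TGF-β1 than in controls for 10 pairs and higher for 3 (HARS, RARS and VARS). With acetate the ratio was lower than with TGF-β1 for 9 pairs and higher for 4. These ratios are made from the levels given above and are no separate evidence. The AARS to AARS2 ratio was 8.65 with acetate, 8.28 with TGF-β1 and 28.6 in controls. The YARS to YARS2 ratio was 1.76, 1.78 and 5.24, and the MARS to MARS2 ratio 11.4, 14.3 and 26.2, in the same order of groups. With coding length in place of transcript length, each pair's ratios scale by a single factor, so the order of the groups within a pair does not change.

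**Figure D4:**
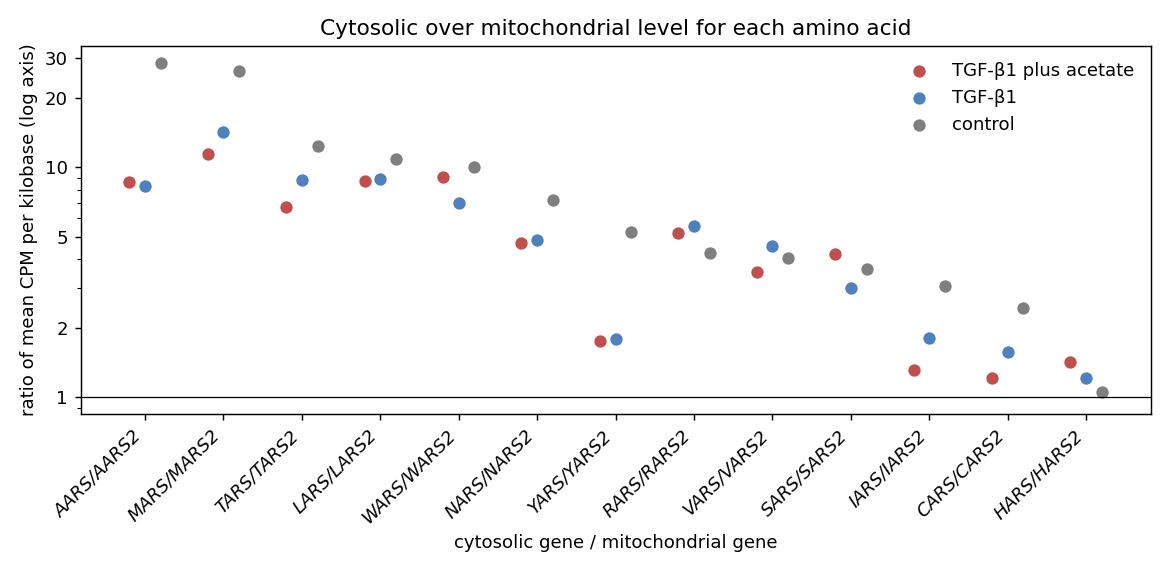
Ratio of the cytosolic to the mitochondrial synthetase level, both in CPM per kilobase of transcript, for 13 amino acids and the 3 groups, on a log axis; points are ratios of group means. The alanine pair is at 8.65 with acetate, 8.28 with TGF-β1 and 28.6 in controls.

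Genes of the ATF4 response itself were mostly lower with TGF-β1, and mixed with acetate against TGF-β1. ATF4 averaged 150 ± 4.26 CPM in acetate libraries, 223 ± 37.0 CPM with TGF-β1 and 332 ± 8.14 CPM in controls (SD, n = 4 each). It fell with TGF-β1 (log2 -0.57 ± 0.078, adjusted p = 7e-06) and again with acetate against TGF-β1 (log2 -0.56 ± 0.080, adjusted p = 1.5e-05). Of 16 regulators of the response, 13 fell and 1 rose with TGF-β1, where 32.8% of all genes were lower. With acetate against TGF-β1, 4 fell, 2 rose and 10 were not called, where 63.7% of all genes were called. Their median log2 fold change with acetate was 0.01, and library totals turned the counts to 3 lower and 7 higher. TRIB3, a pseudokinase that damps ATF4 activity, averaged 46.7 ± 2.29 CPM with acetate, 29.3 ± 3.40 CPM with TGF-β1 and 661 ± 49.6 CPM in controls. It fell by 4.49 on the log2 scale with TGF-β1 and rose by 0.68 with acetate. NUPR1 (log2 -5.31), CEBPB (log2 -1.30) and PPP1R15A (log2 -2.14) fell with TGF-β1 and were not called with acetate, though under library totals CEBPB was called higher with acetate (log2 0.19, adjusted p = 0.022).

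The genes for amino acid making and uptake that ATF4 is known to drive had 15 of 16 lower and 1 higher with TGF-β1. Over all genes, 32.8% were lower. With acetate against TGF-β1, 8 were lower and 4 higher, where 63.7% of all genes were called. Under library totals the acetate counts became 6 lower and 7 higher. ASNS, the asparagine synthetase, averaged 17.4 ± 1.55 CPM with acetate, 37.8 ± 4.01 CPM with TGF-β1 and 252 ± 9.36 CPM in controls, and fell in both steps (log2 -2.73 ± 0.060 and -1.11 ± 0.075, adjusted p = 4.9e-16 and 3.5e-09). PSAT1, a serine synthesis enzyme, fell with TGF-β1 (log2 -2.41) and was not called with acetate (log2 -0.02, adjusted p = 0.65), though under library totals it was called higher (log2 0.11, adjusted p = 0.028). SLC1A5, a glutamine carrier, fell with TGF-β1 (log2 -1.74) and was likewise not called with acetate (log2 -0.05, adjusted p = 0.33). SLC7A11, the cystine carrier, fell with TGF-β1 (log2 -2.04) and rose with acetate (log2 0.30, adjusted p = 1.2e-05).

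Genes that handle transfer RNA beside the synthetases had 7 of 12 lower and 1 higher with TGF-β1, a share called that is near the 66.9% of all genes, and 7 lower and 2 higher with acetate against TGF-β1 (5 lower and 4 higher with library totals). XPOT, which carries transfer RNA out of the nucleus, averaged 154 ± 3.78 CPM with acetate, 229 ± 4.33 CPM with TGF-β1 and 484 ± 13.6 CPM in controls, and fell in both steps (log2 -1.08 ± 0.034 and -0.56 ± 0.032). SEPSECS, which makes selenocysteinyl-tRNA, fell with TGF-β1 (log2 -1.33), as did QRSL1, a subunit of the mitochondrial glutamine amidotransferase (log2 -0.56), and DTD2, which removes wrongly charged amino acids (log2 -0.44). The cytosolic elongation and release factors, which use the charged tRNA, had 6 of 8 higher and 1 lower with TGF-β1, then 7 of 8 lower and 1 higher with acetate. Over all genes, 34.1% were higher with TGF-β1 and 30.4% lower with acetate. Under library totals the count of these factors lower with TGF-β1 became 2. A raised factor was then no longer called (log2 0.06, edgeR adjusted p = 0.074). EEF1D, EIF5A and EEF1G rose with TGF-β1 (log2 0.43, 0.27 and 0.23) and fell with acetate (log2 -0.49, -0.55 and -0.34). ETF1, the termination factor, fell in both steps by 0.21 on the log2 scale, the second not called with library totals (adjusted p = 0.051). Of the mitochondrial translation factors, 12 of 13 had a row. With TGF-β1, 7 were lower, 0 higher and 5 not called, where 66.9% of all genes were called. MTIF2, GFM1, MRRF and MTIF3 fell by 0.68, 0.59, 0.40 and 0.29. With acetate against TGF-β1, 6 were lower and 2 higher, where 63.7% of all genes were called. Library totals turned the acetate counts to 2 lower and 5 higher.

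**Figure D5:**
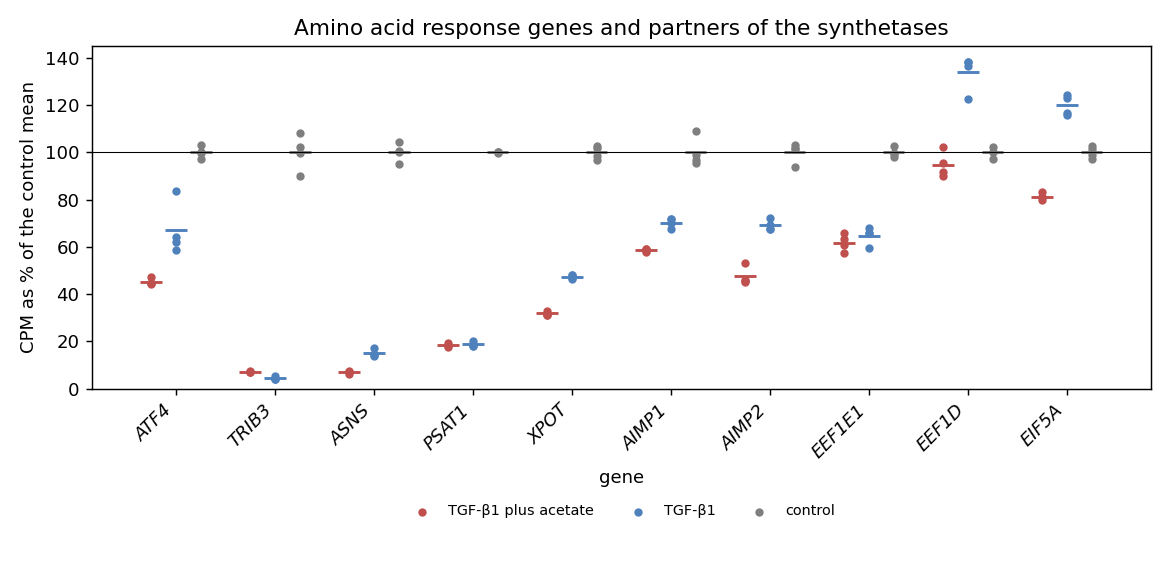
Levels of 10 genes around the synthetases in each library, as a percentage of the control mean of the same gene; points are libraries and short bars group means (n = 4 each), with TGF-β1 plus acetate, TGF-β1 and control libraries from left to right. ATF4, TRIB3, ASNS, PSAT1, XPOT and the 3 scaffold genes are below their controls in both treated groups, and EEF1D and EIF5A are above them with TGF-β1.

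Library S17 of the TGF-β1 group was often the highest for the ATF4-described genes. It was the highest of its group for 11 of those 12 synthetases, for 2 of the 8 other cytosolic genes and for 3 of the 16 mitochondrial ones. It was also the highest for 11 of 16 supply genes and for 11 of 16 regulators. The other groups were uneven too. Acetate library S24 was the highest of its group for 8 of those 12 synthetases and 5 of the 8 others. S24 was also the highest for 11 of the 16 mitochondrial and 12 of the 16 supply genes. Control library S2 was the highest for 10 of 16 regulators. The share of all genes highest in each library was not counted. ATF4 measured 277 CPM in S17 and 195 to 214 CPM in the other TGF-β1 libraries. Without S17 the cytosolic counts with TGF-β1 stayed at 16 lower and 4 higher, with AARS at a log2 fold change of -1.57, MARS at -1.46 and CARS at -1.38. For acetate against TGF-β1, CARS moved to -0.02 without S17.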

How the data were processed

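Per the labels, total RNA was depleted of ribosomal RNA, made into stranded libraries and read as pairs of 75 bp. Per the submitters' processing notes, bcl2fastq, HISAT2, limma and hg38 were used, without versions. How reads were counted, with or without strand, and with which annotation was not given in the sources used here. The authors deposited 2 tables of raw gene counts, with 8 libraries each, beside their own log2 fold changes, p-values and q-values. The count columns carry codes that match no label. The 4 columns found in both tables, with equal counts in all 23771 shared genes, were taken as TGF-β1, and the other sets were placed by the tables' names. The labels do not state this placement, on which every comparison rests. Another 32 per-library columns on a different scale were left out. In the authors' deposited tables, the log2 fold changes of all 36 members had the sign of the values given here in both comparisons they hold, and differed by at most 0.0142. The calls differed more. The authors' q-values were below 0.05 for 34 members with TGF-β1 and for 31 with acetate against TGF-β1. Here 5 and 8 of the 36 were not called. PARS2, RARS2 and WARS2 with TGF-β1, and WARS, FARS2 and NARS2 with acetate, passed only by the authors' q-values.

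The count analysis used edgeR 4.0.16 under R 4.3.3, with filterByExpr (minimum count 10, minimum total 15) and TMM factors. The test was the two-sided quasi-likelihood test of edgeR, p-values were adjusted by Benjamini-Hochberg across every tested gene, and calls were made below 0.05. TGF-β1 against control and TGF-β1 plus acetate against TGF-β1 were fitted within the table that holds both groups (8 libraries each). TGF-β1 plus acetate against control, and all CPM, came from a fit of the 12 libraries joined on shared genes. Standard errors are the log2 fold change divided by the square root of the F statistic. The fits were tested on simulated counts with known changes. Libraries of a group differed by more than sampling noise (chi-square per degree of freedom of 3.71 to 16.3). This check cannot tell whether libraries of a group came from the same RNA or the same culture. Alternatives were RLE factors, library totals, DESeq2 1.42.0, limma-voom (limma 3.58.1), other filters on low counts, protein-coding genes alone, other sets of libraries and leaving out each library. Coordinates are those in the deposited tables (hg38), which equal GENCODE 29 for 33 of the 36 members, and overlaps and lengths are those of GENCODE 29, a length being that of the gene's longest transcript. Members and lists were chosen with earlier results of these data known. Named genes are all members, the cell type markers, and ATF4, ASNS, XPOT and the 3 scaffold genes. Up to 4 genes with the smallest p in each other list for TGF-β1 against control are also named. DDIT3, ARHGAP9, AC011455.2, AC011997.1, GTF2H4 and ZMAT2 are named because they overlap members, and this was chosen after values were seen.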

Additional observations from a re-analysis of the deposited data

Results flagged for a closer look

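In 108 groups of 4 libraries (36 genes, 3 groups), 8 held a library set apart from the other 3 by Dixon's 95% criterion, where chance gives about 5.4. CARS stood out in both treated groups, at 56.6 CPM in acetate library S24 (49.1 to 50.2 CPM in the others) and at 69.0 CPM in TGF-β1 library S17 (50.8 to 53.0 CPM in the others). NARS was low in acetate library S22, at 167 CPM against 177 to 178 CPM in the others. MARS2 was high in TGF-β1 library S16 by a small amount, at 9.30 CPM against 9.06 to 9.10 CPM. In the controls, AARS was high in S2 (532 CPM, others 515 CPM), KARS low in S2 (168 CPM, others 181 to 182 CPM), FARSA high in S4 (64.2 CPM, others 57.6 to 58.6 CPM) and PARS2 low in S3 (5.95 CPM, others 7.45 to 7.67 CPM). PARS2 without S3 was called lower with TGF-β1 (log2 -0.28, adjusted p = 0.007) and with TGF-β1 plus acetate against control (log2 -0.31, adjusted p = 0.014).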

How the results depend on the processing

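Over all alternatives and the 36 genes in 3 comparisons, 1781 values kept their direction and their side of the threshold, 39 passed it newly, 36 no longer passed it and 16 changed sign. For TGF-β1 against control, the count of mitochondrial genes higher was 2 with library totals and 2 with DESeq2, against 4 with TMM, and ran between 2 and 4 when single libraries were left out; the count lower was 11 with library totals, against 7. For acetate against TGF-β1, the cytosolic count lower was 11 with library totals, against 18. The sign changes were all in small values. With library totals, RARS2 became -0.0151 for TGF-β1 against control, and for acetate against TGF-β1 CARS became 0.0167, NARS 0.0057, WARS 0.0743, IARS2 0.0997, MARS2 0.0473, NARS2 0.0523, PARS2 0.0901 and RARS2 0.0724, of which IARS2 was called. PARS2 in that comparison ran between -0.142 and 0.0479 over single libraries left out. For acetate against control, RARS2 became -0.0086 with RLE factors, -0.0083 with DESeq2 and -0.0068 with the 8 libraries alone, and ran between -0.0106 and 0.0341 over single libraries left out; TARS2 became 0.0063 with library totals. The cause was not tested. Splits of all called genes under library totals were 6078 higher and 8676 lower for TGF-β1 against control (7518 and 7224 with TMM). No paired analysis was possible because the count columns carry no replicate number. Coding lengths from RefSeq proteins were not used here; the longest GENCODE 29 coding sequences took their place, a choice made after seeing the data. Low levels limit PARS2, whose lowest count was 187 reads, and no absolute RNA amount was measured.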
